A study of Mus musculus with 367 samples.

Results

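The genes described here encode the chains of collagen VI (Col6a1, Col6a2 and Col6a3), of the short-chain collagen VIII (Col8a1 and Col8a2), of the fibril-associated (FACIT) collagens XII, XIV and XVI (Col12a1, Col14a1 and Col16a1) and of the related multiplexin collagens XV and XVIII (Col15a1 and Col18a1). They were taken by name, and all 10 were found among the 50600 genes of the deposited tables. The cells came from healing wounds of Sm22-Cre;tdTomato mice of mixed background, wounded at an age of 3 to 8 weeks with a square excision of 1.5 cm per side on the back. Sm22-Cre expresses Cre recombinase from the promoter of Tagln, a gene of contractile cells, so that tdTomato marks cells with past or present activity of that promoter. Single viable cells with high tdTomato were captured on microfluidic chips at post-wounding day (PWD) 12 (3 captures, 159 cells), PWD15 (2 captures, 117 cells) and PWD21 (2 captures, 91 cells), and their full-length cDNA was sequenced. No unwounded skin entered the comparisons, and every cell was Sm22-Cre;tdTomato. For each day the wounds of 2 to 3 mice were pooled. Nothing says that captures of the same day held different mice, so p-values measure only the spread between captures, which may be technical.

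Expression was given as FPKM, fragments per unit of transcript length and of mapped fragments in the cell. Of 367 cells, 292 were kept by limits on estimated depth, detected genes and mitochondrial RNA. Kept cells were sorted into kinds by 3 genes. Matrix cells had at least 1000 FPKM of Col1a1, below 100 of Rgs5 and below 50 of Tyrobp. Mural cells had at least 500 of Rgs5 and below 50 of Tyrobp, and myeloid cells at least 500 of Tyrobp. This gave 198 matrix, 57 mural and 26 myeloid cells, with 11 left in no kind. The median estimated depth of the kept cells lay between 959693 and 2376426 fragments per capture, and was lowest in both PWD15 captures. Markers that had not been used to define the kinds were checked. The 5 mural markers other than Rgs5 (Notch3, Mcam, Kcnj8, Abcc9 and Cox4i2) summed to a median of 535 FPKM in mural and 0.0750 in matrix cells. The 5 myeloid markers other than Tyrobp summed to 24605 FPKM in myeloid cells, and none of them was detected in 164 of 198 matrix cells. Endothelial (Pecam1, Cdh5, Kdr, Emcn) and keratinocyte (Krt5, Krt14, Krt10, Krt15) genes had a median sum of 0 in matrix and mural cells. Of the mural cells, 19 also reached 1000 FPKM of Col1a1, and these had more detected genes (median 8086) than the other 38 (4834). Of the myeloid cells, 4 did so.

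Collagen VI is assembled inside the cell from 3 different chains and is secreted as beaded microfilaments that surround cells and lie next to basement membranes, where it meets receptors such as the proteoglycan encoded by Cspg4 and the anthrax toxin receptors. Collagen VIII forms short-chain networks known from vessel walls and Descemet's membrane. The FACIT collagens do not form fibrils of their own but decorate the surface of collagen I fibrils, collagen XII mostly in tissue under tension and collagen XIV mostly in mature, differentiated matrix. Collagens XV and XVIII carry sugar side chains and sit in and beside basement membranes, and collagen XVIII is the source of endostatin. In the dermis these proteins are made by fibroblasts and by the cells around vessels.

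Col6a1, Col6a2 and Col18a1 lie on the same arm of chromosome 10 and on the same strand. In GRCm38, Col6a2 spans chromosome 10 from 76595762 to 76623630, Col6a1 from 76708792 to 76726168 and Col18a1 from 77052178 to 77166548, all on the minus strand, so that 85.2 kb separate the collagen VI genes and 326 kb separate Col6a1 from Col18a1. Col6a3 lies apart, on chromosome 1 from 90765923 to 90843971, also on the minus strand. The bases just before the first annotated exon are shown for these 4 genes because Col6a1 and Col6a2 had the highest correlation of any members across matrix cells, Col6a3 encodes their partner chain, and Col18a1, a neighbour of theirs, was the member higher in mural cells by the test. RefSeq promoter windows (GRCm38.p6) were held for 8 of the 10 genes, all but Col12a1 and Col14a1. Those shown end at the outermost annotated start of the gene. Each run is written 5′ to 3′ on the gene's strand, ends at the base before the exon, and has matches to the GC box (GGGCGG) or the CCAAT box (CCAAT), on either strand, in capitals.
Col6a1, chr10:76726169-76726294, minus strand: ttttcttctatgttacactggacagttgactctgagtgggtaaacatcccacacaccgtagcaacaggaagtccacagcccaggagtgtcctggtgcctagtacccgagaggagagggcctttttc
Col6a2, chr10:76623631-76623880, minus strand: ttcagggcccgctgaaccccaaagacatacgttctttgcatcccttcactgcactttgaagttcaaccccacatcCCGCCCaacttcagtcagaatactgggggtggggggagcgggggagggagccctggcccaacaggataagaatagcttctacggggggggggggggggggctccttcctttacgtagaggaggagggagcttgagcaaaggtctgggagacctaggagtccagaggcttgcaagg
Col6a3, chr1:90843972-90844221, minus strand: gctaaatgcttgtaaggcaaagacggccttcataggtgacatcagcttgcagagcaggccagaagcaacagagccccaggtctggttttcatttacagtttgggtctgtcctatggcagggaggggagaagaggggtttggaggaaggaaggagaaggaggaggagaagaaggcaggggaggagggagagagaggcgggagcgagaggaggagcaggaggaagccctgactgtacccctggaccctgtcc
Col18a1, chr10:77166549-77166780, minus strand: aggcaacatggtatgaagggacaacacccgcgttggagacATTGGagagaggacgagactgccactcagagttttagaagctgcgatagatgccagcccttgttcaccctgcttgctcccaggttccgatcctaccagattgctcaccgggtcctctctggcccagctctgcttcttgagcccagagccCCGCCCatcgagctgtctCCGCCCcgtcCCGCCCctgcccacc

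The Col18a1 window of 232 bases held 3 matches to the GC box and 1 to the CCAAT box. Of 32851 promoter windows of that length, 30.1% and 32.4% hold at least 1 match, and the share with 3 was not counted. The Col6a2 window of 250 bases held 1 GC box match, and 32.7% of windows of that length hold at least 1. No match to either was found in the windows of Col6a1 (126 bases) and Col6a3 (250 bases). The TATA box (TATAAA, in 12.4% of windows of 250 bases) and the AP-1 site (TGACTCA, in 4.46%) had no match on either strand of these 4 windows. The matches do not overlap one another. They are descriptions of the letters and were not set against binding.

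Every one of the 198 matrix cells had all 3 collagen VI chains above 0 FPKM, and no difference between days passed the test. With 198 of 198 cells, the exact 95% interval of the share starts at 98.2%, for counting error only. Mean Col6a1 over the matrix cells of a capture was 902, 701 and 675 FPKM at PWD12, 1121 and 792 at PWD15, and 642 and 819 at PWD21. The days overlapped, with the highest capture at PWD15 and the lowest at PWD21. Mean Col6a2 was 463, 262 and 426 FPKM at PWD12, 571 and 318 at PWD15, and 431 and 353 at PWD21, and again the days overlapped. Mean Col6a3 was 939.7, 959.8 and 964 FPKM at PWD12, 967 and 955 at PWD15, and 778 and 677 at PWD21. Both PWD21 captures were below the other 5, as for 6.21% of genes, with means of 728 ± 71.1 FPKM (SD, n = 2) at PWD21 and 954 ± 12.8 (SD, n = 3) at PWD12. That difference of −0.39 on the log2(mean FPKM + 1) scale (SE 0.25) did not pass limma's test over all genes (adjusted p = 0.78).

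**Figure D1:**
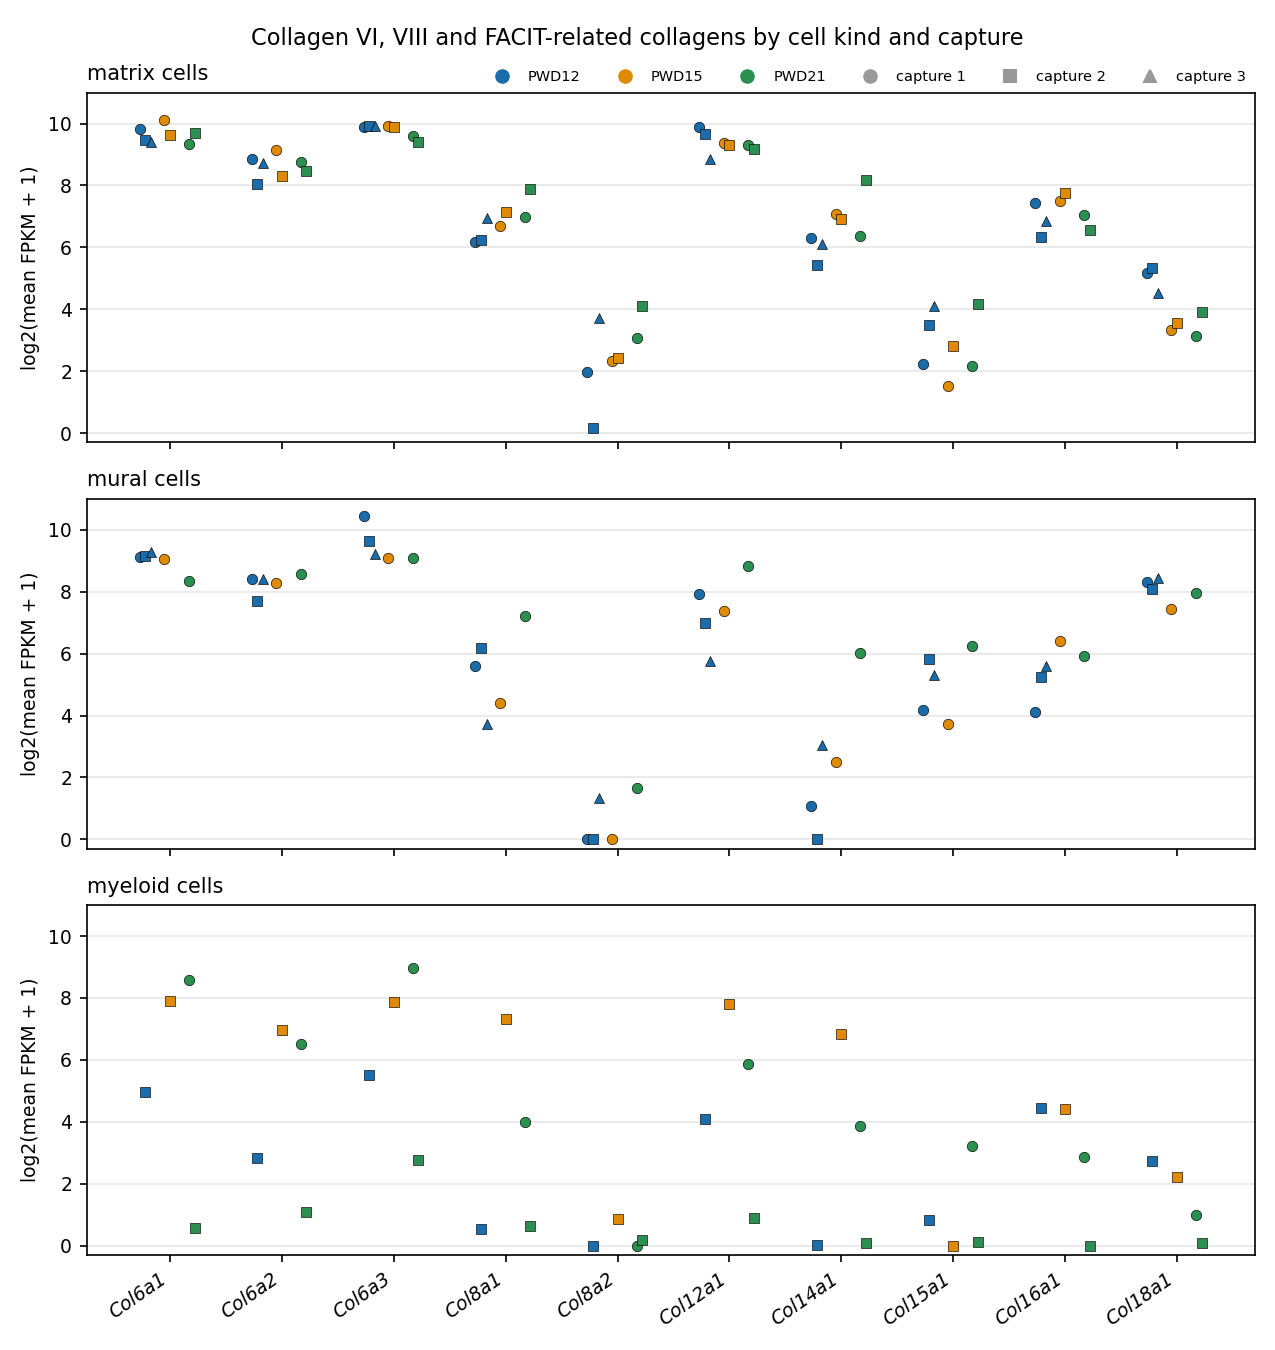
Level of each collagen gene, as log2 of the mean FPKM plus 1 over the cells of a capture, in matrix (top), mural (middle) and myeloid cells (bottom). Each point is a capture with at least 3 cells of that kind, coloured by day and shaped by capture number. Collagen VI genes are high in matrix and mural cells, whereas myeloid captures are spread widely, from a mean of 0.487 to 386 FPKM for Col6a1.

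The 3 chains were not at equal FPKM, a unit that allows for transcript length. The mean of Col6a2 was between 0.373 and 0.672 times that of Col6a1 in the 7 captures, and in 178 of 198 matrix cells Col6a1 exceeded Col6a2. The mean of Col6a3 was between 0.827 and 1.43 times that of Col6a1, so that either chain could lead. Col6a1 and Col6a2 also varied little between matrix cells. The SD of log2(FPKM + 1) between cells, averaged over captures, was 0.93 for Col6a1, 0.96 for Col6a2 and 1.35 for Col6a3, against 0.62 for Col1a1, which was used to choose these cells, and 3.08 for Col8a1.

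Across matrix cells of the same capture, Col6a1 and Col6a2 had the highest correlation of any 2 members. Their mean Spearman rho over the 7 captures was 0.54, with 0.38 in the lowest and 0.82 in the highest capture. For Col6a1, Col6a2 ranked first among 9420 genes, ahead of Rp9 (0.33) and Serpinh1 (0.32), which encodes the collagen chaperone HSP47. For Col6a2, Col6a1 was likewise first, followed by Col7a1 (0.34) and Spon1 (0.31). Col6a3 was less close, at 0.31 with Col6a1 (range −0.02 to 0.51) and 0.27 with Col6a2 (range −0.05 to 0.69), and its next genes were Col5a3 and Ctdspl2 (both 0.27). The cells of a capture share a library preparation and differ in depth, so these values describe the captures and carry no p. The median correlation of Col6a1 with all these genes was −0.02.

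Mural cells also carried collagen VI. All 57 mural cells had Col6a2 and Col6a3 above 0 FPKM, and 55 of 57 had Col6a1. In the 5 captures with at least 3 mural cells, mean Col6a1 was 560.1, 574 and 624 FPKM at PWD12, 529.7 at PWD15 and 326 at PWD21. Each value was below that of the matrix cells of the same capture, as for 8.47% of genes. The mean difference, mural minus matrix, was −0.63 ± 0.42 (SD, n = 5 captures) on the log2 scale for Col6a1, −0.44 ± 0.26 for Col6a2 and −0.34 ± 0.56 for Col6a3, and did not pass the test (limma adjusted p = 0.2, 0.43 and 0.53, with the capture as a block). The median difference of all genes was −0.22. In the 38 mural cells with Col1a1 below 1000 FPKM, the mean was 376 FPKM for Col6a1, 263 for Col6a2 and 658 for Col6a3, and 36, 38 and 38 of these cells had a value. The same cells had Pdgfra, a fibroblast receptor, in 4 of 38.

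Of the 10 members, 1 was higher and 2 were lower in mural than in matrix cells, where 1.71% of 13823 genes passed the test in either direction, 0.948% as higher and 0.760% as lower. The kinds were defined by Col1a1, Rgs5 and Tyrobp in the same cells, so genes that follow these from cell to cell are not independent of the choice. The member that rose was Col18a1. Its mean in mural cells was 315, 270.3 and 348 FPKM at PWD12, 172 at PWD15 and 249 at PWD21, against 35.1, 39.5, 22, 8.98 and 7.86 in the matrix cells of the same captures. These capture means did not overlap between the kinds. Col18a1 was higher in mural cells in 5 of 5 captures, as for 4.73% of genes, and was detected in 57 of 57 mural cells. The difference was 3.75 ± 0.82 (SD, n = 5) and ranged from 2.74 to 4.82 (limma adjusted p = 0.0023). The largest difference, at PWD21, rested on 8 mural cells, of which 1 reached 1299.7 FPKM. PWD15 capture 2 was not compared, and its 1 mural cell had 2.54 FPKM, below the mean of 10.9 in its matrix cells. The call was lost without PWD12 capture 3 (adjusted p = 0.097), without PWD15 capture 1 (adjusted p = 0.07) and with no filter on low values (adjusted p = 0.061), while the difference stayed between 3.19 and 5.52 in all 17 alternatives. Mural cells with low Col1a1 had a mean of 299 FPKM and those with high Col1a1 of 175.

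**Figure D2:**
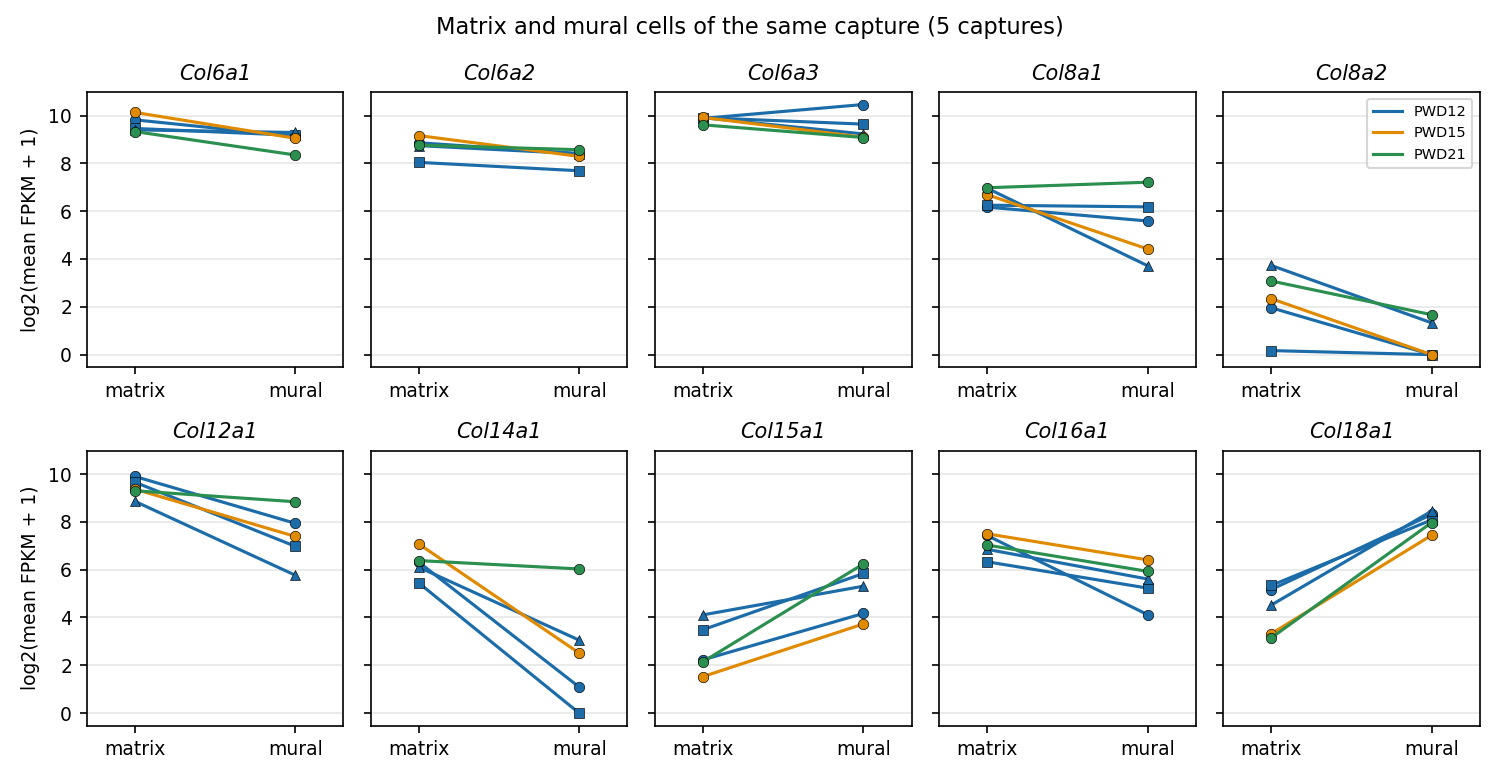
Matrix and mural cells of the same capture joined by a line for each member, as log2(mean FPKM + 1). There are 5 captures, coloured by day. Lines for Col18a1 and Col15a1 go up in all 5 captures, lines for Col12a1, Col14a1, Col16a1, Col8a2, Col6a1 and Col6a2 go down in all 5, and Col14a1 and Col12a1 are nearly flat at PWD21. Of all genes, 4.73% were higher and 8.47% lower in mural cells in every capture.

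Col15a1, the other multiplexin, was higher in mural cells in 5 of 5 captures, which 4.73% of genes were. Its means were 17.0, 56.4, 38.6, 12.2 and 74.6 FPKM in mural cells and 3.70, 10.2, 16.2, 1.88 and 3.43 in the matrix cells of the same captures. The difference of 2.36 ± 1.07 (SD, n = 5) missed the threshold (limma adjusted p = 0.096). It was called in 1 of 17 alternatives, when log2 values of single cells were averaged (2.39, adjusted p = 0.0032). That averaging called 657 of 13823 genes, against 236 in the main test. Leaving out a capture gave an adjusted p from 0.21 to 0.31. The PWD21 value rested on few cells, since 3 of 8 mural cells had Col15a1 and 1 of them reached 461 FPKM. In mural cells as a whole, 42 of 57 had Col15a1 (73.7%), against 50 of 198 matrix cells (25.3%). Across matrix cells, Col15a1 and Col18a1 had the highest mean rho of the pairs outside collagen VI (0.28, range −0.02 to 0.62), and the genes closest to Col18a1 were Col4a2 (0.38) and Col4a1 (0.35), which encode the chains of the main basement membrane collagen, and Gm3854 (0.33).

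The members that fell were Col12a1 and Col14a1. Col12a1 had means of 245, 125, 53.6, 167 and 456 FPKM in mural cells, in the order PWD12 captures 1 to 3, PWD15 and PWD21, and of 956, 806, 465, 660.0 and 631 in matrix cells. The PWD21 capture was closest to its matrix cells. The difference was −2.03 ± 1.00 (SD, n = 5, limma adjusted p = 0.021). Leaving out any of the 5 captures ended the call, with an adjusted p of 0.05 (just above the threshold before rounding) without the PWD21 capture and up to 0.25 without PWD15 capture 1, and so did dropping the filter on low values (0.27) or the variance trend (0.15) and taking medians over cells (0.48). In all, 8 of 17 alternatives lost the call and 9 kept it. Of the mural cells, 53 of 57 had some Col12a1, but its median was 4.27 FPKM in those with low Col1a1 and 438 in those with high Col1a1.

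Col14a1 was low in mural cells before PWD21. Its means were 1.12, 0.00286, 7.26, 4.69 and 64.2 FPKM, against 78.4, 42.3, 67.6, 133 and 82.1 in matrix cells. Mural cells with Col1a1 below 1000 FPKM had a mean of 0.460 FPKM, with a value in 11 of 38. The difference was −3.72 ± 2.10 (SD, n = 5), from −5.43 to −0.35, with a limma adjusted p of 0.045. Leaving out any capture ended the call, with an adjusted p from 0.066 (without the PWD21 capture) to 0.32 (without PWD15 capture 1). It was also lost at a pseudocount of 0.1 (0.079) or 10 (0.065), without the filter on low values (0.32), the variance trend (0.095) or the cut on Col1a1 (0.052), and with medians over cells (0.91). In all, 11 of 17 alternatives lost the call and 6 kept it. At PWD21, 4 of the 8 mural cells had Col1a1 of at least 1000 FPKM. The change of these differences between PWD12 and later captures was tested over all genes and was not called for any member (limma adjusted p of at least 0.91 in mural cells), with 0 of 13823 genes called and 688 below an unadjusted p of 0.05.

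Among the remaining members, Col16a1 was lower in 5 of 5 captures (−1.57 ± 0.97, SD, limma adjusted p = 0.14). Col8a2 was likewise lower (−1.66 ± 0.92, adjusted p = 0.26), where 8.47% of genes were lower in every capture. Col16a1 was called in 1 of 17 alternatives, with log2 values of single cells averaged (−2.60, adjusted p = 0.0024). That averaging called 657 of 13823 genes. Col8a1 was lower in 4 of 5 (−1.18 ± 1.50, adjusted p = 0.38). Col8a2 was detected in 3 of 57 mural cells, 5.26% with an exact 95% interval from 1.10 to 14.6%, for counting error only. It was detected in 48 of 198 matrix cells, 24.2%. Of these 48, 14 came from PWD21 capture 2, which had 0 mural cells, so the pooled shares are not paired by capture. The collagen VIII chains were thus at unlike levels in mural cells, with 46.3 FPKM of Col8a1 and 0.678 of Col8a2 averaged over all cells.

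The shares of matrix cells with Col14a1 and with Col18a1 differed between days, in opposite directions. At PWD12, 16 of 31, 12 of 26 and 13 of 17 matrix cells had Col14a1 above 0 FPKM. At PWD15 all 50 and 22 cells had it, and at PWD21 18 of 18 and 33 of 34. The shares were 46.2 to 76.5% at PWD12 and 97.1 to 100% later, without overlap, as for 1.17% of genes in that direction, or 1.15% with a floor of 1 FPKM and 1.29% with a floor of 10 FPKM. Estimated depth was lowest at PWD15, and its part in these shares was not tested. The gap remained with a floor of 10 FPKM, chosen after seeing the data, with 35.5, 38.5 and 64.7% at PWD12, 90.0 and 81.8% at PWD15 and 83.3 and 94.1% at PWD21. Capture medians were 0.280, 0 and 42.5 FPKM at PWD12, 106 and 91.2 at PWD15 and 76 and 278 at PWD21.

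**Figure D3:**
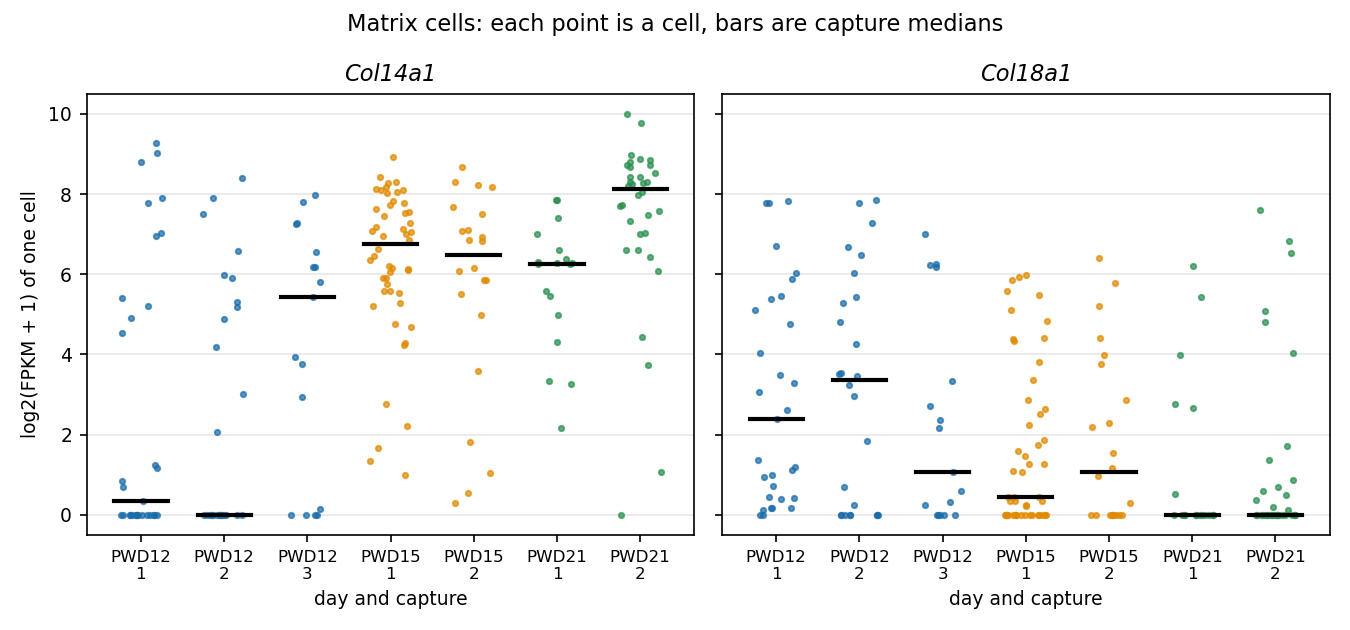
Col14a1 (left) and Col18a1 (right) in each matrix cell as log2(FPKM + 1), by day and capture, with bars at the capture medians. Many PWD12 cells lie at 0 for Col14a1 beside cells of up to 620.4 FPKM, whereas nearly all later cells are above 0. For Col18a1 the capture medians are 1.10 to 9.27 FPKM at PWD12 and 0 at PWD21.

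PWD12 cells that had Col14a1 reached up to 620.4 FPKM. Mean Col14a1 was 78.4, 42.3 and 67.6 FPKM at PWD12, 133 and 121 at PWD15, and 82.1 and 286 at PWD21. All later captures were above all PWD12 captures, as for 2.36% of genes, but PWD21 capture 1 was close to PWD12 capture 1. On the log2(mean FPKM + 1) scale the difference was 1.05 (SE 0.56) from PWD12 to PWD15 and 1.32 (SE 0.56) from PWD12 to PWD21, and neither passed the test (limma adjusted p = 0.87 and 0.69). The latter difference was 0.43 without PWD21 capture 2 and 2.21 without PWD21 capture 1. When the log2 values of single cells were averaged instead, the differences were 2.86 (adjusted p = 0.077) and 3.44 (adjusted p = 0.019), so the latter was called. With that averaging 70 of 13552 genes were called between PWD12 and PWD21, against 1, or 0.00738%, in the main test.

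Col18a1 went the other way. It was above 0 FPKM in 93.5, 69.2 and 70.6% of matrix cells at PWD12, in 64 and 59.1% at PWD15 and in 33.3 and 44.1% at PWD21. The days followed each other without overlap, as for 1.37% of genes. They did so with a floor of 1 FPKM as well, where the share of genes with such steps was not counted. At that floor 12.2% of genes were higher in every PWD12 capture than in every later one. With a floor of 10 FPKM the Col18a1 shares were 38.7, 50 and 23.5%, then 22 and 27.3%, then 16.7 and 17.6%. PWD12 capture 3 thus fell among the PWD15 captures. Detected genes per matrix cell had capture medians of 6233, 6326 and 6073 at PWD12, 5464 and 4857 at PWD15, and 5906 and 5561 at PWD21. They were thus lower after PWD12, as Col18a1 was, but higher at PWD21 than at PWD15. Of all genes, 11% were detected more often in every PWD12 capture than in every later one. Estimated depth did not follow the order of the Col18a1 shares (976690 to 982518 fragments at PWD15, 2211468 to 2316117 at PWD21). The part of these differences in the Col18a1 shares was not tested. Mean Col18a1 was 35.1, 39.5 and 22 FPKM at PWD12, 8.98 and 10.9 at PWD15, and 7.86 and 14.1 at PWD21, with all later captures below all PWD12 captures, as for 5.11% of genes. The differences of −1.57 (SE 0.63) to PWD15 and −1.48 (SE 0.63) to PWD21 did not pass the test (limma adjusted p = 0.81 and 0.69). In matrix cells the 5 mural markers other than Rgs5, which was capped in choosing these cells, summed to between 1.21 and 15.2 FPKM per capture, with Notch3 detected in 13 of 198 cells, and the part of such RNA in Col18a1 was not tested.

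Matrix cells were also counted by which of these genes they had, pooled over the captures of a day. At PWD12, 18 of 74 matrix cells had both Col14a1 and Col18a1 at 1 FPKM or more, 19 had Col14a1 alone, 27 had Col18a1 alone and 10 had neither. At PWD15 the counts were 34, 36, 1 and 1 of 72, and at PWD21 13, 38, 0 and 1 of 52. Cells with Col18a1 alone were thus 27 at PWD12 and 1 later. Nearly all later cells had Col14a1, so few could have Col18a1 alone, whatever the level of Col18a1. Whether the genes shared cells less often than their shares imply was not tested. Within captures the genes had a mean rho of −0.17, negative in 6 of 7 captures. The genes closest to Col14a1 were Abi3bp (0.39), Gas6 (0.38) and Cercam (0.36).

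**Figure D4:**
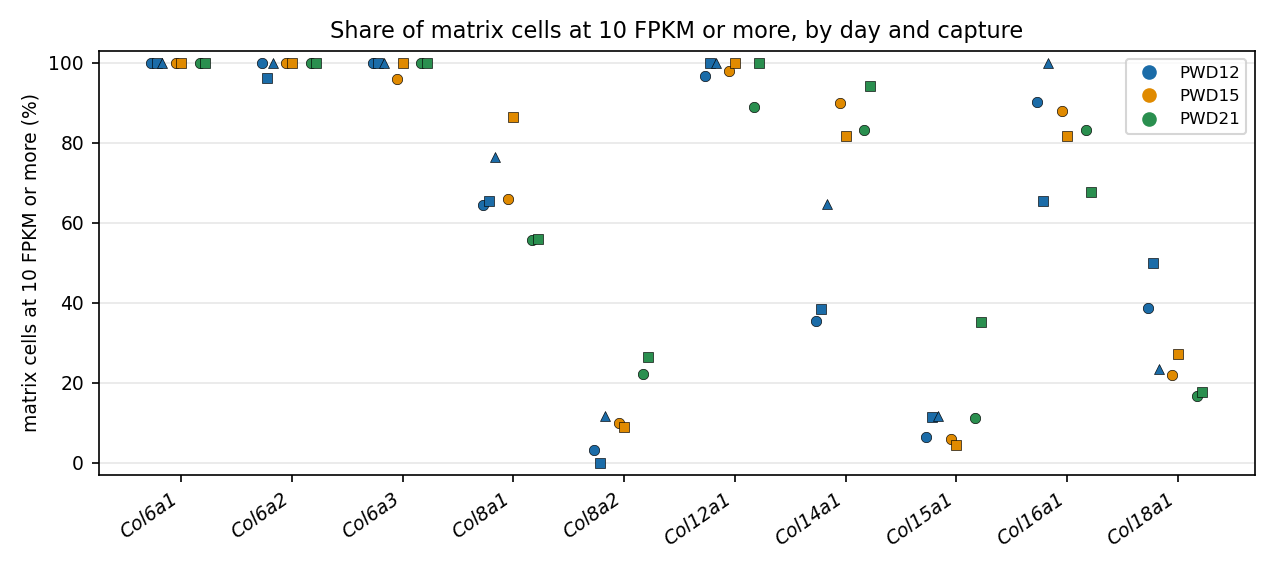
Percent of matrix cells with at least 10 FPKM of each member, by day (colour) and capture (circle for capture 1, square for 2, triangle for 3). Collagen VI is at 96.0% or more in every capture, Col14a1 lies at 35.5 to 64.7% at PWD12 and above 80% later, and Col8a2 is highest in both PWD21 captures.

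No member passed the test between days on capture means, in the main analysis. In simulated data with the spread of these captures, 1.0% of genes changed by 2 on the log2 scale between PWD12 and PWD21 were called. Of genes changed by 4, 76.5% were called. The lack of a call therefore does not show that a member stayed at the same level. Of 13552 genes, 0 were called between PWD12 and PWD15 (791, or 5.84%, with an unadjusted p below 0.05), 1 between PWD12 and PWD21 (968, or 7.14%) and 0 between PWD15 and PWD21 (745, or 5.50%). Of the members, 1, 2 and 0 had an unadjusted p below 0.05, namely Col18a1 from PWD12 to PWD15 and Col14a1 and Col18a1 from PWD12 to PWD21. The median difference of all genes was −0.10, −0.19 and −0.05 in these comparisons. Col12a1 was in 198 of 198 matrix cells, at 956, 806 and 465 FPKM at PWD12, 660.0 and 638 at PWD15, and 631 and 585 at PWD21, with its widest spread inside PWD12. The genes closest to it within captures were Ptk7 (0.34, range 0.15 to 0.62), Thbs2 (0.33, range −0.18 to 0.61) and Col1a2 (0.32, range −0.15 to 0.84). Col16a1 was in 187 of 198 matrix cells, with means of 171, 79.4 and 114 FPKM, then 181 and 216, then 129.6 and 92.6. Its means were highest in both PWD15 captures, as for 4.07% of genes. These were also the shallowest captures, and the part of depth was not tested. Its closest named protein-coding genes were Col1a2 (0.33) and Ltbp3 (0.32), with the ribosomal RNA gene CT010467.1 (0.33) between them.

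Collagen VIII was uneven among matrix cells. Col8a1 was above 0 FPKM in 173 of 198 matrix cells, and its capture means were 71.1, 75.2 and 123 FPKM at PWD12, 102 and 140.4 at PWD15, and 125 and 234 at PWD21. The capture medians stayed between 34.6 and 82.2 FPKM, and the PWD21 cells ranged from 0 to 1419 FPKM. While the mean was 0.97 higher on the log2 scale at PWD21 than at PWD12 (SE 0.46, limma adjusted p = 0.72), the direction turned when log2 values of single cells were averaged (−0.36). Fewer cells had it at PWD21 (61.1 and 76.5%) than in any earlier capture (80.8 to 100%), as for 5.03% of genes. Col8a2, the partner chain, was found in 22.6, 7.69 and 23.5% of matrix cells at PWD12, 22 and 18.2% at PWD15 and 33.3 and 41.2% at PWD21. Both PWD21 captures were above all others, as for 3.52% of genes, and remained so with a floor of 10 FPKM (22.2 and 26.5% against at most 11.8%, as for 2.99% of genes, or 2.42% at a floor of 1 FPKM). Its mean was 2.90, 0.127 and 12.2 FPKM at PWD12, 4.07 and 4.39 at PWD15, and 7.48 and 16.2 at PWD21, and the difference of 1.64 between PWD21 and PWD12 (SE 1.07) did not pass the test (limma adjusted p = 0.78). It was 0.75 without PWD12 capture 2, 2.53 without PWD12 capture 3, 0.59 with a pseudocount of 10 and 0 with medians over cells. Within captures the collagen VIII chains had a mean rho of 0.23, positive in 7 of 7 captures. The genes closest to Col8a1 were Marcks (0.43), Omd (0.42), which encodes osteomodulin, a leucine-rich proteoglycan, and C1qtnf3 (0.41).

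Col15a1 in matrix cells stood out in a single capture. It was above 0 FPKM in 11.5 to 27.8% of the matrix cells of 6 captures, and in 23 of 34 cells (67.6%) of PWD21 capture 2. Mean Col15a1 was 3.70, 10.2 and 16.2 FPKM at PWD12, 1.88 and 5.98 at PWD15, and 3.43 and 16.8 at PWD21, so the mean in that capture was close to that of PWD12 capture 3, where 4 of 17 cells held it. PWD21 capture 2 had the highest mean of Col15a1, Col14a1, Col8a1 and Col8a2 of the 7 captures. The share of all genes with their highest mean in that capture was not counted. Its matrix cells also had the highest estimated depth (median of 2316117 fragments), and the part of depth was not tested.

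**Figure D5:**
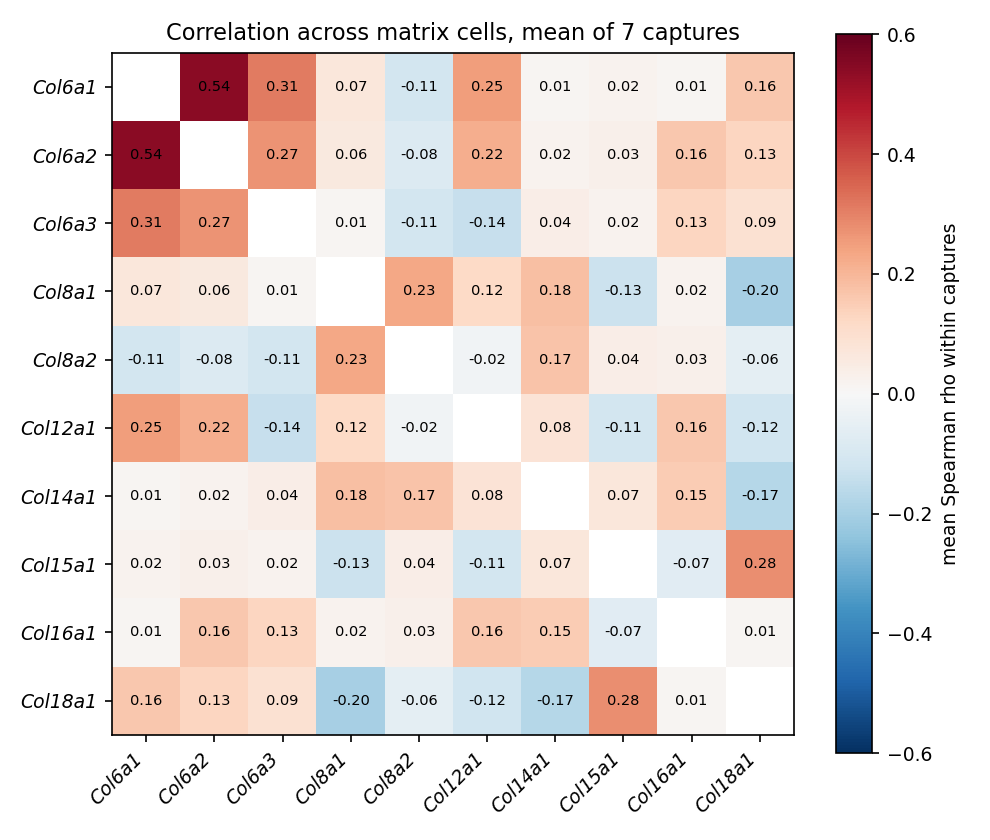
Spearman correlation between members across the matrix cells of a capture, averaged over 7 captures. Col6a1 with Col6a2 (0.54) is the strongest pair, Col15a1 with Col18a1 reaches 0.28, and Col8a1 with Col18a1 is lowest at −0.20.

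Most myeloid cells had these collagens at low levels, and a few held collagen VI in the range of matrix cells. Col6a3 was above 0 FPKM in 22 of 26 myeloid cells, Col12a1 in 16, Col6a2 in 15 and Col6a1 in 13. In 22 of the 26 myeloid cells, Col6a1 was at most 2.74 FPKM and Col6a2 at most 3.05, Col6a3 was at most 10.2 and Col12a1 at most 10.8, and Col14a1 was at most 0.140. The exception was Col16a1, which reached 217 FPKM in 1 of these cells. The other 4 cells had Col1a1 of 2047, 6923, 10805 and 6201 FPKM together with Tyrobp of 2708, 1343, 2527 and 1515, and Col6a1 of 332, 188, 757 and 1928. They came from PWD12 capture 2 (1 cell), PWD15 capture 2 (2 cells) and PWD21 capture 1 (1 cell). Their detected genes had a median of 6374, against 4919 in the other 22 cells. The authors excluded doublets seen under the microscope from their analyses, and the part of such cells here was not tested.

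Capture means followed these 4 cells. Mean Col6a1 in myeloid cells was 30.4, 236, 386 and 0.487 FPKM in PWD12 capture 2, PWD15 capture 2, PWD21 capture 1 and PWD21 capture 2. The difference from matrix cells was −4.02 ± 3.75 (SD, n = 4 captures, limma adjusted p = 0.058, or 0.045 after scaling each cell to TPM). Col6a2 (−4.04 ± 2.77, adjusted p = 0.049), Col6a3 (−3.43 ± 2.65, adjusted p = 0.045) and Col12a1 (−4.70 ± 2.93, adjusted p = 0.03) fell, 3 of 10 members, where 6.59% of 13059 genes were called, 4.90% as lower and 1.69% as higher. All genes had a median difference of −1.0, so the values are to be read against it. Leaving out any capture ended each of the 3 calls (adjusted p from 0.17 to 0.28). In all, Col6a2 lost its call in 13, Col6a3 in 11 and Col12a1 in 7 of 16 alternatives. With no filter on low values the adjusted p was 0.27, 0.3 and 0.25, and with at least 5 cells per capture 0.15, 0.15 and 0.057. Without the capture as a block (0.057 and 0.068), the variance trend (0.062 and 0.088) or the cell filter (0.061 and 0.051), only Col6a2 and Col6a3 lost it. An alternative added after seeing the data used the 22 myeloid cells of low Col1a1 alone and kept 3 captures. Col6a1 was then lower by 9.16 on the log2 scale (limma adjusted p = 0.014). The 4 cells left out were those high in collagen VI, so this value follows from the choice and is not separate support. The members were lower in every capture in 8 of 10 cases, Col8a1 and Col15a1 being higher in 1 of 4, where 26.4% of all genes were lower and 5.34% higher in every capture.

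Of 10 other collagen VI, short-chain and FACIT genes, 4 had enough signal to be tested between mural and matrix cells and 0 passed, with Col6a5 at 0.67 (SE 0.95, limma adjusted p = 0.79) and Col6a6 at −0.72 (SE 0.71, adjusted p = 0.68). Col9a1 and Col19a1 were listed at 0 in all matrix, mural and myeloid cells, which for 198 matrix cells allows a share of up to 1.52%. Col6a5 was found in 30 of 198 matrix and 12 of 57 mural cells. Col6a4 and Col6a6, the other alternatives to the third chain, were found in 2 and 14 matrix cells. Against these, Col6a3 was found in 198 of 198 matrix cells.

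Among 10 tested receptors and binding partners of collagen VI, 0 rose and 1 fell in mural cells. This was Dcn, the proteoglycan decorin (−2.11, SE 0.25, limma adjusted p = 0.0023). The median of the list was −0.18, against −0.22 for all genes. Cspg4, the pericyte proteoglycan that binds collagen VI, differed by 2.66 (SE 0.67, adjusted p = 0.087) and the collagen receptor subunit Itga1 by 3.49 (SE 0.88, adjusted p = 0.088), and neither passed. Antxr1 was found in 186 of 198 matrix and 46 of 57 mural cells.

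Of 12 tested fibrillar collagens and partners of the FACIT collagens, 0 rose and 6 fell in mural cells, with a list median of −1.62. They included Col1a2 (−2.01, SE 0.19, limma adjusted p = 0.00089), Col3a1 (−1.80, SE 0.22, adjusted p = 0.003), Postn, which encodes periostin (−1.45, SE 0.22, adjusted p = 0.0097), and Lum, which encodes lumican (−3.48, SE 0.63, adjusted p = 0.025). Col1a2 and Col3a1 go with Col1a1, which was used to choose the cells. Of 18 tested collagen folding and processing genes, 2 fell and 0 rose, namely the crosslinking enzymes Loxl1 (−2.63, SE 0.49, adjusted p = 0.027) and Lox (−3.13, SE 0.65, adjusted p = 0.045), and the list median was −1.11.

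Of 12 tested basement membrane genes, 2 rose and 0 fell in mural cells, Col4a1 (3.62, SE 0.52, limma adjusted p = 0.0077) and Col4a2 (3.47, SE 0.51, adjusted p = 0.0086), and the list median was 0.63. In myeloid cells, 1 of the 12 fell (Lama4, a laminin chain, −4.18, SE 1.02, adjusted p = 0.038), as did 8 of 12 fibrillar collagens and partners, 6 of 18 folding and processing genes and 1 of 10 receptors and partners, and 0 rose. Between days, 0 genes of the 5 lists passed the test. Examples are Col4a1 (−3.95, SE 0.76, PWD15 minus PWD12, adjusted p = 0.46) and Tnc, which encodes tenascin C (−2.94, SE 0.45, PWD21 minus PWD12, adjusted p = 0.097).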

How the data were processed

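The deposited values are FPKM, which the authors computed with RSEM after alignment with Bowtie 1.0.0 to mm10 and GENCODE mouse release 13. The authors excluded wells with doublets, seen by microscopy, from their analyses. Whether all of them were left out before deposit was not checked. Fragment counts and totals are not in these values, so each cell's depth was estimated from the FPKM value that 1 fragment gives on genes with a single transcript length, assuming fragments of 300 bp, and tested on simulated data. Cells below 159000 fragments, above 11000 genes or with mitochondrial genes above 15% of the FPKM total were left out. The library kit does not mark strand, and Col12a1, Col14a1, Col15a1 and Col18a1 each overlap a gene on the other strand, and Col6a3 overlaps Gm36970 on its own strand, in GENCODE release 21 (GRCm38), from which positions were taken for 50376 identifiers while 224 had no record.

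Mean FPKM over the cells of a kind in a capture, for captures with at least 3 cells, was compared as log2(mean FPKM + 1), for genes whose mean reached 1 FPKM, by limma 3.58.1 in R 4.3.3 (variance trend, two-sided, Benjamini-Hochberg adjustment over all genes, threshold 0.05). Differences on this scale understate the change of low genes. Comparisons of kinds had the capture as a block, since both profiles come from the same chip. Captures were the replicates. Same-numbered captures of different days did not deviate together (correlations from −0.01 to 0.03), so no block was used between days. Detection means a value above 0 FPKM. Correlations used captures with at least 10 matrix cells and genes found in at least 20% of matrix cells. The genes named as closest to a member are by Spearman correlation. With Pearson correlation of log2(FPKM + 1), the 3 closest changed in part for the other members and in full for Col12a1. Intervals are exact binomial intervals at 95%, and the floor for a share of 0 is 3 cells.

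The members and the gene lists were chosen with earlier results of these data known. Named are the members, the 3 genes most correlated with each member found in most matrix cells, and per list the up to 4 genes with the smallest adjusted p or, with none called, the largest difference. Others (Cspg4, Itga1, Antxr1, the minor collagen VI chains, Col9a1, Col19a1 and Pdgfra) were named after their values were seen. The alternatives changed the cell filter, pseudocount, low-value filter, averaging, scaling, variance trend, cut on Col1a1, block, minimum of cells and the captures used. Python 3.11.15 with pandas 2.3.3, numpy 2.4.6 and scipy 1.17.1 was used.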

Additional observations from a re-analysis of the deposited data

Results flagged for a closer look

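Col16a1 showed a capture far from the others. Its difference between mural and matrix cells of the same capture was −3.31 on the log2 scale in PWD12 capture 1 and between −1.24 and −1.09 in the other 4 captures, so that the gap made up 0.932 of the whole range, above the 95% limit of 0.71 for 5 values. The capture held 9 mural cells, 4 of them with Col16a1. Of 30 sets of capture values examined in this way, 1 was so marked, and chance marks about 1 in 20.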

How the results depend on the processing

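Of 438 alternative values for members, 364 kept their direction and side of the threshold, 3 (Col8a2 with medians over cells) were 0, 53 lost and 16 gained a call, and 2 turned: Col8a1 from PWD12 to PWD21 was −0.36 when log2 values of cells were averaged and −0.08 with medians. Medians over cells, the cuts of mural and myeloid cells at 1000 FPKM of Col1a1 and the floor of 10 FPKM were chosen after seeing the data. With medians, most genes did not vary between captures of a day, so limma's variance estimate is unreliable for the days there. The counts of genes called depended strongly on the settings, and the cause was not tested. From PWD12 to PWD15 there were 28 with averaged log2 values and 2 with medians, against 0. From PWD12 to PWD21 there were 70 and 3, 3 with a higher cut on Col1a1, 0 after scaling to TPM, with no filter on low values, with a pseudocount of 0.1 or with the replicate block, and 0 to 0 with a capture left out, against 1. From PWD15 to PWD21 there was 1 with medians and 1 with a pseudocount of 10, against 0. Between mural and matrix cells there were 657 with averaged log2 values, 38 with medians, 596 with mural cells of low Col1a1, 19 with no filter on low values, 90 with no variance trend and 10 (without PWD15 capture 1) to 30 (without PWD21 capture 1) with a capture left out, against 236. Between myeloid and matrix cells there were 1365 after scaling to TPM, 154 with at least 5 cells, 100 with medians, 1360 with myeloid cells of low Col1a1, 485 with no cell filter, 31 with no filter on low values, 183 with a pseudocount of 10 and 0 (without PWD12 capture 2) to 21 (without PWD21 capture 2) with a capture left out, against 861. Without the replicate block (the capture) there were 251 mural and 1236 myeloid calls. Same-numbered captures of different days share only a number. Shares of matrix cells also depend on the floor, by construction. At 1 FPKM the mean over captures was 99.5% for Col6a2, 99.7% for Col6a3, 95.5% for Col14a1 at PWD15, and 59.7, 49 and 25.7% for Col18a1 at PWD12, PWD15 and PWD21. At 10 FPKM it was 99.5% for Col6a2, 99.4% for Col6a3, 67.2% for Col8a1, 11.8% for Col8a2, 97.7% for Col12a1, 82.4% for Col16a1 and 28% for Col18a1, with 85.9 and 88.7% for Col14a1 at PWD15 and PWD21, and 37.4, 24.6 and 17.2% for Col18a1 at PWD12, PWD15 and PWD21. The part of depth in these shares was not tested.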

Other observations

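The 11 kept cells of no kind also carried collagen VI. Col6a1, Col6a2 and Col6a3 were above 0 FPKM in 11 of 11, with medians of 575, 95.2 and 258 FPKM and a range from 0.330 to 1374 for Col6a1. Col18a1 was found in 10 of 11, with a median of 61.4 FPKM. In these cells Col1a1 had a median of 2914 FPKM and Rgs5 of 6.86.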
